A study of Homo sapiens with 4 samples.

Results

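The AMPA and kainate receptor genes are GRIA1, GRIA2, GRIA3, GRIA4, GRIK1, GRIK2, GRIK3, GRIK4 and GRIK5. They are 9 of the 20176 protein-coding genes searched for m7G methylation peaks. Their exons carried 13 of the 8070 peaks of HL60 cells and 9 of the 8122 peaks of HL60/MX2 cells. The family was chosen by its peaks in these same lists, among them a long region common to both lines in GRIA4, and every peak over an exon of a member on the same strand was kept. The number of members with a peak and the number of shared peaks therefore describe the choice and support nothing. Both lists come from m7G MeRIP-seq, in which fragmented poly(A) RNA is enriched with an antibody against N7-methylguanosine (m7G) and regions with more reads than expected are called as peaks. HL60 (HL-60 in the labels, genotype WT) is an established human promyelocytic leukemia line, and HL60/MX2 is its drug-resistant counterpart (labelled as drug-resistant cells). Both were growing cultures in RPMI-1640 medium with fetal calf serum, and no drug is named for either at harvest. Each cell line gave 1 enriched library and 1 input library, and the input libraries and RNA levels were not analysed here.

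AMPA and kainate receptors are ligand-gated cation channels that open when glutamate binds. Each channel is a tetramer. GRIA1 to GRIA4 encode the AMPA receptor subunits, which carry most fast excitatory transmission in the brain. GRIK1, GRIK2 and GRIK3 encode kainate receptor subunits that can form channels by themselves, and GRIK4 and GRIK5 encode the high-affinity subunits that need one of the former to form a working channel. Their best known tissue is the nervous system, not myeloid cells. A peak is a region called in an enriched library, and it does not measure the level of the transcript or the share of molecules that are modified.

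Neither line has a second enriched library, so no difference between them was tested, and the exact Clopper-Pearson 95% intervals cover counting error only. Read counts are absent from the lists. The depth is therefore unknown, and precision is limited by how few peaks the family has. The score of a peak is the value the authors deposited, on a scale that is not stated, and it is given with its percentile within its own list (50 at the middle). Positions are on hg19, with starts counted from 1, and exons come from GENCODE release 44 placed on that build. Exons and codons are numbered on the longest coding transcript of a gene unless another transcript is named.

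The stretches that the results turn on are short parts of exons, written 5′ to 3′ on the strand of the gene from the hg19 genome. Capitals mark bases inside a listed peak or inside the GRIK5 site that the study singles out, and lower case marks exon bases outside them. The first pair is from the 2 ends of exon 7 of GRIA2, where the shared peaks lie in coding sequence, at chr4:158253971-158254000 and chr4:158254109-158254138. In this pair, capitals mark bases in the peaks of both lists, and the lower-case bases are in the HL60/MX2 peak alone.
GRIA2 exon 7 first bases: tatactTCTGCTCTGACCTATGATGCCGTT
GRIA2 exon 7 last bases: GGTGTAGAAATAGAAAGGGCCCTCAAACAG
The next pair is from a pair of alternative exons of GRIA4, at chr11:105836674-105836703 and chr11:105842641-105842670, of which only the first had a peak.
GRIA4 peaked exon, first bases: AAATGCTGTTAACCTCGCAGTTTTAAAACT
GRIA4 other exon, first bases: aactcctgtaaaccttgccgttttgaaact
The following stretches compare exons of GRIK2 (chr6:102503205-102503234) and GRIK1 (minus strand, chr21:30927594-30927623 and chr21:30927373-30927402) that encode the same part of the subunit and had peaks at opposite ends.
GRIK2 exon 18 first bases: GTTCTCCATATCGAGACAAAATTACCATAG
GRIK1 exon 16 first bases: gttctccttaccgggataaaattactattg
GRIK1 exon 16 last bases: AAATCACGGAAGAATAATGATATTGAACAG
The last set holds the shortest receptor peak, in GRIA3 (chrX:122319684-122319712), and from the minus strand the GRIK5 site (chr19:42569375-42569400) and the first bases of the coding GRIK5 peak of HL60/MX2 cells (chr19:42525597-42525626).
GRIA3 HL60 peak: GTGGACTTTTCATGAGAAACACAGTGCAG
GRIK5 site: CAGCCAGTACGAGACCACGGACACCA
GRIK5 HL60/MX2 peak, first bases: GCTGAGCCCCTATGAGTGGTATAACCCACA

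In HL60 cells, 7 of the 9 genes had a peak (77.8%, 95% interval 40.0-97.2%), against 27.0% of all protein-coding genes. In HL60/MX2 cells, 5 of 9 had one (55.6%, 21.2-86.3%), against 29.5% of all genes. The receptor genes are long, with a median of 7791 bp of merged exons against 4386 bp over all genes, and among the 7202 genes with an exon length in the same range (5722 to 26797 bp) the shares were 39.5% and 42.4%. Because the family was chosen with these peaks known, nothing is read from the distance between these shares. All 4 AMPA receptor genes had a peak in HL60, and 3 of the 4 did in HL60/MX2. The 5 kainate receptor genes were peaked in 3 cases in HL60 and in 2 cases in HL60/MX2. GRIA1, GRIA2, GRIA4 and GRIK2 had peaks in both lists, where 12.2% of all genes and 21.6% of genes of like exon length did. GRIA3, GRIK1 and GRIK4 had peaks only in the HL60 list, GRIK5 only in the HL60/MX2 list, and GRIK3 in neither. With 8 of the 9 peaked in either list, the matching shares were 44.2% of all genes and 60.3% of genes of like exon length. Each of the 22 peaks lay over exons of 1 protein-coding gene, so no assignment was ambiguous.

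**Figure D1:**
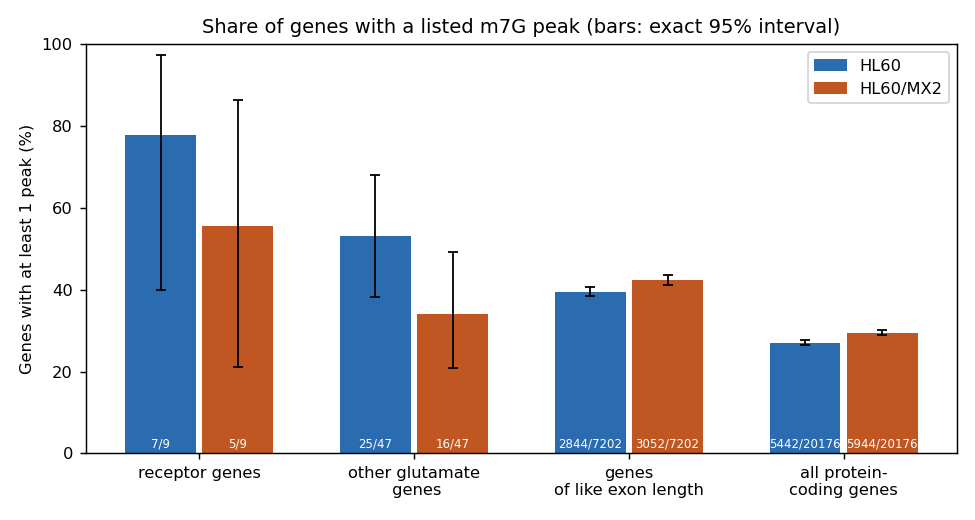
Share of genes with at least 1 listed m7G peak (vertical axis, %) in 4 sets of genes. These are the 9 receptor genes, 47 other glutamate receptor and accessory genes, 7202 genes and all 20176 protein-coding genes. The 7202 genes of like exon length lie in the length range of the 9 receptor genes, not of the 47. Blue bars are HL60 and orange bars HL60/MX2, with 1 library each, error bars are exact 95% intervals for counting error, and the counts stand at the foot of each bar. The intervals of the receptor genes span 40.0-97.2% and 21.2-86.3%.

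**Figure D2:**
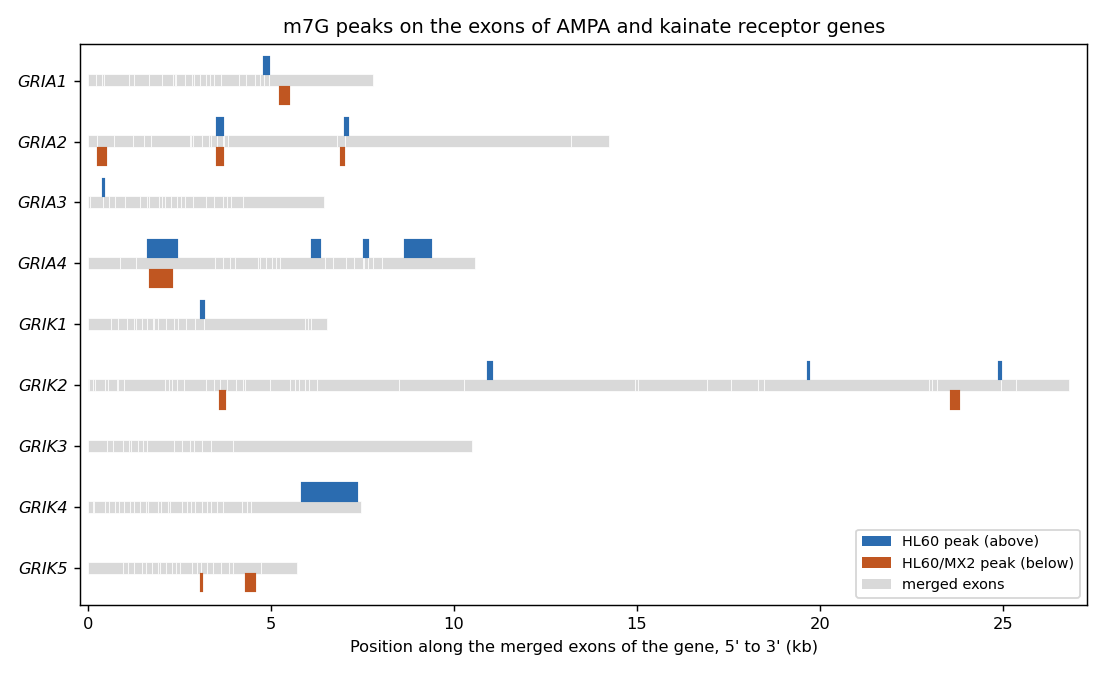
Merged exons of each receptor gene (grey, white lines at the joins), 5′ to 3′ in kb along the horizontal axis, with HL60 peaks drawn above in blue and HL60/MX2 peaks below in orange. Only GRIA2 and GRIA4 have a blue and an orange block at the same place, and GRIK3 has none.

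GRIA1 encodes an AMPA receptor subunit (GluA1) known for its regulated insertion at synapses. The gene lies on the plus strand at chr5:152869175-153193429. In HL60 its 1 peak covered the whole of exon 16, 135 bp at chr5:153181916-153182050, and codons 837 to 881 of 947. The score was 247.81, at percentile 60.5 of the list. In HL60/MX2 its 1 peak was 262 bp long at chr5:153190883-153191144, within the 3'UTR and 98 to 359 nt after the stop codon, with a score of 85.03 at percentile 12.3. The peaks were 8832 bp apart on the genome and lay in neighbouring exons, 1 in coding sequence and 1 in untranslated sequence.

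GRIA2 encodes the subunit (GluA2) that limits the calcium permeability of AMPA receptors. The gene lies on the plus strand at chr4:158125334-158308298 and had 2 peaks in HL60 and 3 in HL60/MX2. The HL60/MX2 peak at chr4:158253971-158254138 matched the 168 nt of exon 7 from end to end, and the HL60 peak at chr4:158253977-158254138 held the same exon without its first 6 nt. These are the bases in lower case in the first GRIA2 stretch above. The pair overlapped by 162 bp, which was 100% of the HL60 peak and 96.4% of the HL60/MX2 peak, over codons 297 to 350 of 901. Its score was 156.14 in HL60 (percentile 39.4) and 154.75 in HL60/MX2 (percentile 30.7), below the middle of both lists. The other peaks of GRIA2 did not overlap between the lists. The second HL60 peak took the first 90 bp of the 248-nt exon 13 (codons 682 to 711, score 216.62, percentile 54.1). The last HL60/MX2 peak took the last 102 bp of the 199-nt exon 12 (codons 648 to 681, score 95.61, percentile 15.2). On the longest coding transcript it covered nt 2291 to 2392 and the second HL60 peak nt 2393 to 2482. These peaks thus met at the exon junction of the spliced transcript with no base in common, and were counted as not shared. Whether they come from the same stretch of RNA was not tested. The first HL60/MX2 peak, at chr4:158141092-158141296, lay in the 5'UTR of an alternative first exon of GRIA2-214 and GRIA2-216, off the longest coding transcript. It was 205 bp long with a score of 79.91 at percentile 10.4.

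GRIA3, an AMPA receptor gene on the X chromosome (plus strand, chrX:122318006-122624766), had the shortest receptor peak of either list. It covered the first 29 bp of the 159-nt exon 2 in HL60 and codons 37 to 46 of 894, and the bases are printed in full above. Its score of 420.55 lay at percentile 83.3, so the shortest of the 13 HL60 peaks had the second highest score among them. No peak of the HL60/MX2 list lay in GRIA3.

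GRIA4 encodes the subunit GluA4 and lies on the plus strand at chr11:105480262-105852817. It had the most HL60 peaks of the family, 4, which together covered 17.3% of its 10567 bp of merged exons, and 1 in HL60/MX2, which covered 5.70%. The first HL60 peak was 795 bp long at chr11:105483346-105484140 (score 229.89, percentile 57.3), and the HL60/MX2 peak was 602 bp long at chr11:105483400-105484001 (score 386.91, percentile 65.5). The HL60/MX2 peak lay wholly within the HL60 peak and covered 75.7% of it, starting 54 bp later and ending 139 bp earlier. The overlap of 602 bp ranked 1 of the 495 shared pairs of both lists, whose median was 94.00 bp and whose next longest was 519 bp. The peaks ranked 72 and 147 by length in their lists.

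The shared GRIA4 region is exonic in only 1 of the 16 annotated transcripts of the gene. This transcript, GRIA4-209, has 3 exons and an open reading frame of 84 codons, far shorter than the 902 codons of the longest coding transcript. Of the 2161 nt of its last exon, 164 nt are coding, and the peaks lay after them, 177 to 971 nt past the stop codon in HL60 and 231 to 832 nt past it in HL60/MX2. The same bases lie outside the exons of the longest coding transcript. Both peaks started and ended inside the exon, and neither touched an exon end. Their GC content was 35.8% in HL60 and 37.4% in HL60/MX2, under the list medians of 45.2% and 48.0%.

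The other GRIA4 peaks were found in HL60 only and lay over different kinds of exon. A 211-bp peak at chr11:105783484-105783694 (score 240.29, percentile 59.1) was in the 3'UTR of the last exon of GRIA4-202 and GRIA4-203, short transcripts of 433 codons that end before the channel-forming part of the subunit. A 115-bp peak at chr11:105836674-105836788 (score 339.85, percentile 75.1) matched an alternative coding exon from end to end. This exon and a second of the same 115 nt at chr11:105842641-105842755 are an alternative pair, and 85 of their 115 bases are identical (73.9%). The pair is known in AMPA receptors as flip and flop, and which exon bears which name was not assigned here. Of the 16 transcripts 5 hold the exon with the peak and 4 the other exon, and 2 of these hold both. No peak of either list lay on the other exon. The last HL60 peak, 703 bp at chr11:105850922-105851624 (score 250.4, percentile 61.6), lay in the 3'UTR of the full-length transcripts, in exon 17. Thus 3 of the 5 GRIA4 peaks lay in the 3'UTR of a short transcript, 1 in an alternative coding exon and 1 in the common 3'UTR, and none over coding sequence of the longest coding transcript.

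**Figure D3:**
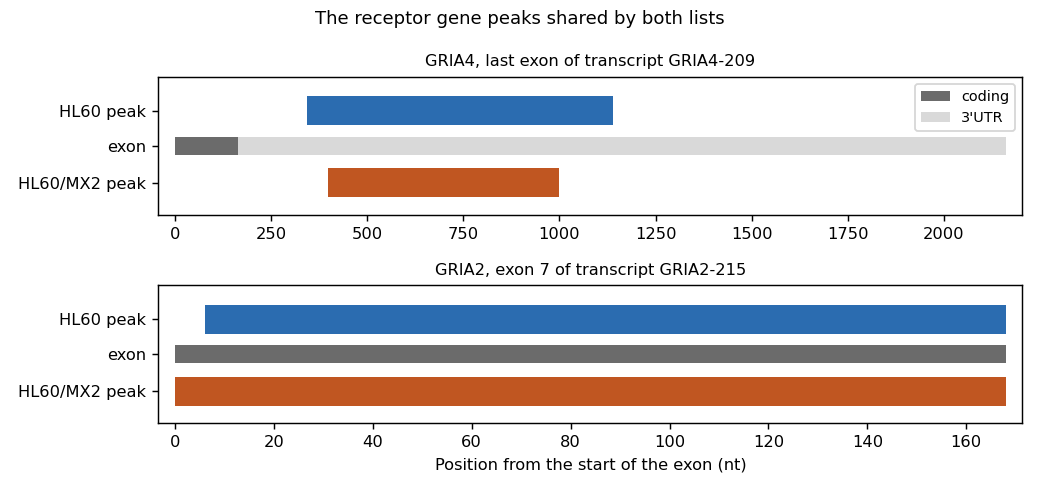
Position of the shared peaks within their exons, in nt from the exon start, for the last exon of GRIA4-209 (upper panel) and exon 7 of GRIA2 (lower panel). Blue is the HL60 peak, orange the HL60/MX2 peak, dark grey coding and light grey 3'UTR. The GRIA4 peaks lie inside the 2161-nt exon without touching its ends, while the GRIA2 peaks fill the 168-nt exon but for 6 nt in HL60.

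Among the kainate receptor genes, GRIK1 (minus strand, chr21:30909254-31312351) had 1 peak in HL60 and none in HL60/MX2. It covered the last 81 bp of the 251-nt exon 16, at chr21:30927373-30927453 and codons 843 to 869 of 949. Its score was 107.12, at percentile 23.7. GRIK3, on the minus strand of chromosome 1 (chr1:37261128-37500116), had no listed peak over its 10497 bp of exons. A gene without a listed peak cannot be told apart from a gene whose RNA was too rare for a peak to be called.

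GRIK2 encodes GluK2, the kainate receptor subunit most studied in the brain (plus strand, chr6:101410577-102529497). It is the longest gene of the family in merged exons, with 26797 bp, the upper end of the length range used above. Merged exons take in every annotated transcript, also those with retained introns, and the longest coding transcript has 4951 nt. HL60 gave 3 peaks in GRIK2 and HL60/MX2 gave 2, with no overlap between the lists. In HL60 a 119-bp peak matched exon 15 from end to end (chr6:102372476-102372594, codons 583 to 623 of 908, score 278.57, percentile 65.8). A 44-bp peak took the first bases of the 251-nt exon 18 (chr6:102503205-102503248, codons 771 to 785, score 253.76, percentile 62.0). The third, 42 bp at chr6:102517917-102517958, lay in the 3'UTR and had the lowest score of the HL60 receptor peaks (90.44, percentile 18.0) and a GC content of 14.3%. It ended at the annotated 3′ end of GRIK2-202, and only 28 of its bases lay on the longest coding transcript, which ends earlier. In HL60/MX2 a 137-bp peak took the first bases of the 168-nt exon 5 (chr6:102069824-102069960, codons 39 to 84, score 265.17, percentile 50.5). The other, 244 bp at chr6:102516592-102516835, lay 206 to 449 nt past the stop codon (score 363.16, percentile 62.9). Both lists thus had a peak in the last exon of GRIK2, with 1081 bp between them.

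GRIK4, a high-affinity kainate subunit gene (plus strand, chr11:120382455-120859615), had the longest receptor peak and 1 of the longest of all. It spanned 1502 bp at chr11:120858009-120859510, in the 3'UTR, 1040 to 2541 nt past the stop codon. By length it ranked 3 of the 8070 HL60 peaks, and its score of 1043.94 ranked 123, at percentile 98.5. It covered 20.1% of the exon bases of the gene and 1502 of the 3003 nt of the last exon, starting and ending inside it. No HL60/MX2 peak lay in GRIK4.

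GRIK5, the other high-affinity subunit gene (minus strand, chr19:42502473-42574358), had peaks only in HL60/MX2. The one with the higher score was 255 bp long at chr19:42506098-42506352 and spanned the stop codon of GRIK5-202, with 83 bp of coding sequence, in a stretch that is exonic in 1 of 6 transcripts. Its score of 1250.78 ranked 285 of the HL60/MX2 list, at percentile 96.4, the highest of the 9 HL60/MX2 receptor peaks. The other took the first 50 bp of the 174-nt exon 14 (chr19:42525577-42525626, codons 566 to 583 of 981), and with a score of 65.28 at percentile 5.49 it was the lowest of them.

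The study lists a GRIK5 site among those with more m7G methylation in HL60/MX2 cells. Read with a start counted from 0, as in the peak lists, the site is 26 bp long at chr19:42569375-42569400 and forms the 3′ end of the 165-nt exon 2, over codons 73 to 82 of 981. All 3 protein-coding transcripts of GRIK5 hold it as coding sequence. Neither list has a peak over the site. In HL60/MX2 the nearest peak of the same strand was 26970 bp away, in POU2F2, and the nearest GRIK5 peak was 43748 bp away. In HL60 the nearest peak of the same strand was 77083 bp away, and GRIK5 had none. The 2 listed GRIK5 peaks are therefore other regions than the site. The study used MACS for peaks and diffReps for differential sites, and the differential calls behind the GRIK5 site were not analysed here.

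Most receptor peaks overlapped no peak of the other line on the genome. The shared peaks were 2 of the 13 in HL60 (15.4%, 1.92-45.4%) and 2 of the 9 in HL60/MX2 (22.2%, 2.81-60.0%), against 6.13% and 6.09% of the whole lists. The family was chosen with the shared GRIA4 region known, so nothing is read from the distance between these shares. Both were in AMPA receptor genes, and of the 9 kainate receptor peaks of the lists (5 and 4) none was shared. Of the 4 genes with peaks in both lists, GRIA2 and GRIA4 shared one and GRIA1 and GRIK2 did not. Over all 2471 genes with peaks in both lists, 473 (19.1%) had a shared peak.

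By length, the HL60 receptor peaks ran from 29 to 1502 bp with a median of 119.0 bp (list median 129.0), and the HL60/MX2 receptor peaks from 50 to 602 bp with a median of 205.0 bp (list median 133.0). Of the 22, 4 were 500 bp or longer, in GRIA4 (3) and GRIK4 (1), where 4.13% (HL60) and 3.23% (HL60/MX2) of all peaks were. The median score percentile was 60.5 in HL60, with 10 of 13 peaks at or above the list median, and 30.7 in HL60/MX2, with 4 of 9. The AMPA receptor peaks had a median percentile of 59.8 (HL60) and 15.2 (HL60/MX2). For the kainate receptor peaks it was 62.0 and 56.7 in the same order. The low HL60/MX2 value rests on GRIA1 and GRIA2, whose 4 peaks lay between percentiles 10.4 and 30.7, while the GRIA4 peak was at 65.5. With so few peaks and 1 library a line, these medians are descriptions of the lists.

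**Figure D4:**
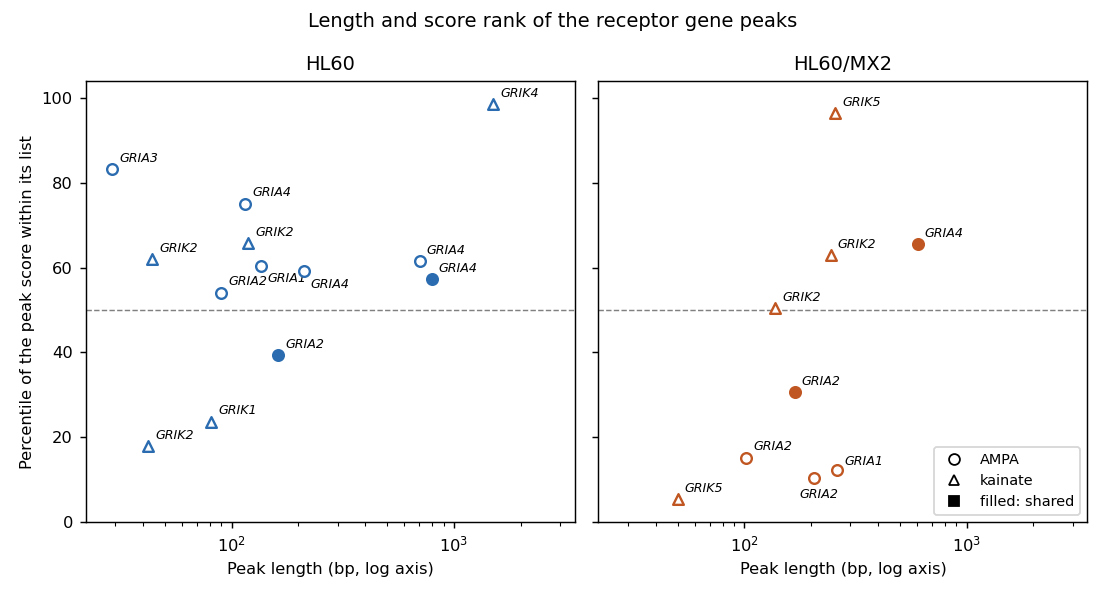
Length in bp (horizontal, log axis) and score percentile within its own list (vertical) of each receptor peak, HL60 on the left and HL60/MX2 on the right. Circles are AMPA and triangles kainate receptor genes, filled symbols are shared peaks, and the dashed line is the middle of the list. GRIK4 stands at the upper right in HL60 with 1502 bp and percentile 98.5, and 5 of the 9 HL60/MX2 peaks lie below the line.

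On the longest coding transcripts, 7 HL60 peaks were classed as coding, where 63.7% of all HL60 peaks placed on such a transcript were, and 3 as 3'UTR (21.1% of all placed). In HL60/MX2, 4 were coding (59.7%), 2 in the 3'UTR (18.3%) and 1, in GRIK5, within 100 nt of the stop codon (4.30%, and 4.65% in HL60, where the family had none). No receptor peak was classed in the 5'UTR, a class that held 3.40% of the placed HL60 peaks and 5.70% of those of HL60/MX2. None was within 100 nt of a start codon, where the lists had 7.13% and 12.0%. A further 3 HL60 and 2 HL60/MX2 receptor peaks lay off the longest coding transcript, in GRIA4 (4) and GRIA2 (1), against 14.9% and 15.1% of the peaks over protein-coding exons. Taking every annotated transcript, 13 of the 22 peaks held coding bases, 8 only 3'UTR and 1 only 5'UTR. An end of the peak fell exactly on an exon end in 14 of 22, against 67.7% and 68.7% of the lists, and 4 filled a whole exon, against 22.5% and 20.0%. The authors kept regions over exons of protein-coding genes, and whether regions were trimmed to exons at that step is not stated, so the extent of such a peak beyond the exon is not known.

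The encoded proteins are alike, which allowed the peaks to be compared at matching places. Between translated longest transcripts, identity was 69.0-73.7% among AMPA subunits, 42.5-79.8% among kainate subunits and 36.4-43.3% between the families. Exon 16 of GRIK1 and exon 18 of GRIK2 align over 84 residues and are both 251 nt long, and both had an HL60 peak. The GRIK2 peak began at the first base of the exon and the GRIK1 peak ended at the last base of the exon, so they covered different parts of it. In the stretches printed above, 24 of the first 30 bases of these exons were identical, yet only those of GRIK2 were in a peak. Exon 16 of GRIA1, filled by its HL60 peak, aligned with the same kainate exons over 42 residues (GRIK1) and 44 residues (GRIK2). The matching exons of GRIA2, GRIA3, GRIA4, GRIK3, GRIK4 and GRIK5, taken from their longest coding transcripts, had no peak. The alternative GRIA4 exon filled by an HL60 peak is off that transcript, so it was not among the exons matched.

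Other matches joined peaks of different lines. Exon 15 of GRIK2, with an HL60 peak, aligned with exon 14 of GRIK5, with an HL60/MX2 peak, over 39 residues. Exon 2 of GRIA3 (HL60) aligned with exon 5 of GRIK2 (HL60/MX2) over 48 residues. In the other receptor genes, the exons matched to these had no peak in either list. Among them, exon 2 of GRIK5 aligned with exon 2 of GRIA3 over 48 residues. The site described above lies at the end of that GRIK5 exon, while the GRIA3 peak lies at the start of its exon. The shared peak of GRIA2 had no matching exon with a peak. Its exon 7 aligned over 56 residues with exons of 168 nt in GRIA1, GRIA3 and GRIA4, and these, like the matching exons of the kainate receptor genes, had 0 peaks in either list.

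The motifs CUGKR (CTGGA or CTGGG, with CTGTA and CTGTG besides) and GGAAR (GGAAA or GGAAG), which the study names for its m7G peaks, were searched in the receptor peaks on the gene strand. The study describes the motifs of its lines as significantly different, while here each motif was searched in both lists. CUGKR was in 6 of 13 HL60 peaks and 6 of 9 HL60/MX2 peaks, where 56.0% and 57.2% of the lists hold it. GGAAR was in 6 and 4, where 43.9% and 43.0% of the lists hold it. All 4 receptor peaks of 500 bp or longer held both, but of the lists' peaks of 300 bp and over, 90.1% (HL60) and 89.9% (HL60/MX2) held CUGKR, and 77.5% and 76.1% held GGAAR. Among peaks of at least 100 bp and under 300 bp, CUGKR was in 1 of 5 HL60 receptor peaks (list 68.6%) and 5 of 7 HL60/MX2 receptor peaks (list 70.1%). GGAAR was in 2 of those 5 (list 52.4%) and 3 of those 7 (list 51.2%). Neither motif was in the HL60 peaks of GRIA1 and GRIA3, in the HL60 peaks of GRIA4 and GRIK2 under 300 bp except the 119-bp one, or in the HL60/MX2 peaks of GRIK5 and the 102-bp one of GRIA2. A match of 5 letters is a description of the sequence and not a modified site.

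Of 47 other genes of glutamate signalling, the HL60 list had a peak in 25 (53.2%, 38.1-67.9%) and the HL60/MX2 list in 16 (34.0%, 20.9-49.3%), with 11 in both. Over all protein-coding genes the shares were 27.0% and 29.5%, and 12.2% had a peak in both lists. Over genes in the exon length range of the 9 receptor genes they were 39.5% and 42.4%, with 21.6% in both. Some of the 47 genes lie outside that range, such as SHISA8 (1823 bp) and GRIN2B (31134 bp). It is therefore no length match for them. The HL60 share of the 47 genes lay above both values and the HL60/MX2 share between them, which was not tested. The counts by class below are small and are to be read against the same shares. The 7 NMDA receptor genes, whose channels need glutamate together with glycine or serine, were peaked in 5 and 2 cases (HL60 first). The 8 metabotropic receptor genes, which act through G proteins, were peaked in 4 and 2 cases. Of 15 accessory subunit genes, which set the gating and trafficking of AMPA and kainate receptors, 4 and 3 had a peak, and of 15 genes for anchoring and trafficking proteins 10 and 7 did. DLG1 and DLG3, which encode synaptic scaffold proteins, were among those with a shared peak.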

How the data were processed

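The authors isolated poly(A) RNA, removed the caps with a decapping enzyme, fragmented the RNA, enriched it with an m7G antibody and made directional libraries. They trimmed reads with Cutadapt 1.9.3, aligned them to hg19 with HISAT2 2.0.4 and called peaks with MACS. Differential sites were called with diffReps, and regions from both programs over exons of protein-coding genes were kept. The version and settings of MACS are not given in the sources used here. The 2 lists analysed, 1 per cell line, hold the deposited position, strand, name and score of each peak, and the deposited score has no stated scale (lowest value 50.0 in HL60 and 50.03 in HL60/MX2). With no read counts the depth is unknown. A gene whose RNA is rare can lack a peak for that reason alone, so a missing peak does not show missing modification.

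The members and lists were chosen with earlier results of these data known. All 9 genes of the family were named with every peak, and of the other glutamate genes those with a shared peak, of which some are not reported here. The build was checked by the length of chromosome 1 (249250621 bp). Peaks were assigned to protein-coding genes by an exon overlap of 1 bp or more on the same strand, and peaks of both lists that overlapped each other by 1 bp or more were called shared. The region class was that of the largest overlap on the longest coding transcript, and windows reaching 100 nt up- and downstream of a start or stop codon were classed separately. Proteins were translated from the genome and aligned globally with the BLOSUM62 matrix, and exons of the longest coding transcripts were matched by aligned residues. No test was made between the lines. Software versions were pysam 0.24.0, Biopython 1.88, scipy 1.17.1, numpy 2.4.6 and matplotlib 3.10.9 under Python 3.11.15. Tested on simulated data with 20176 genes, 2000 of 2000 peaks were assigned to their gene, 200 of 200 planted shared peaks were found and 500 of 500 windows were classed in their region. The simulated peaks were drawn from the same exons, the planted pairs overlapped by design and each window lay in a single class. The rates therefore check the code only and say nothing about real peaks. Alternatives changed the exons, the strand, the lowest score, the shortest peak, the overlap and the region classes.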

Additional observations from a re-analysis of the deposited data

Results flagged for a closer look

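Peak names end in a number that increases from one position to the next, and inside the receptor genes these numbers skip many values. Between the first and last HL60 peak of a gene, 6 numbers had no listed peak in GRIA2, 139 in GRIA4 and 60 in GRIK2. In HL60/MX2 the unlisted numbers were 29 in GRIA2, 95 in GRIK2 and 5 in GRIK5. In HL60 the numbers rose by 258 per Mb in GRIA2, 386 in GRIA4 and 426 in GRIK2, against 304 over the whole list. In HL60/MX2 they rose by 255 per Mb in GRIA2, 215 in GRIK2 and 307 in GRIK5, against 252, so the receptor genes lay on both sides of the rate of their list. The lists do not say what the missing numbers stand for, the input libraries were not set beside them, and their origin was not tested.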

How the results depend on the processing

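Of 59 alternative values, 50 stayed close to those reported and 9 moved. A count within a factor of 1.5 of that reported was taken as close. With peaks of at least 50 bp only, there were 10 HL60 receptor peaks in place of 13, and 5 coding ones in place of 7. With exons of the longest coding transcript only, 4 genes had an HL60/MX2 peak in place of 5. Keeping only peaks at or above the median score of their list left 4 HL60/MX2 receptor peaks in place of 9, in 3 genes in place of 5, with 1 coding peak in place of 4 and 1 shared peak (GRIA4) in place of 2. By construction it raised the median score percentiles to 61.8 in HL60 and 64.2 in HL60/MX2, and it put the nearest HL60 peak 221452 bp from the GRIK5 site. With exons of the longest coding transcript only, 1 shared peak (GRIA2) was left, since the GRIA4 pair is off that transcript and its overlap has no value there. On either strand the nearest HL60/MX2 peak was 10889 bp from the GRIK5 site. No paired analysis was possible because each cell line has 1 enriched library, and for the same reason no replicate could be left out. Without read counts, a missing peak at a weakly covered gene cannot be told apart from missing enrichment.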
